A study of Mus musculus with 504 samples.

Results

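Transcripts of 5 receptor tyrosine kinases (Egfr, Erbb2, Erbb3, Erbb4 and Met) and of 4 growth factors that bind ErbB receptors (Areg, Hbegf, Tgfa and Nrg1) were followed through sorted tumour cell populations of mice. These 9 genes were taken by name from the 55450 gene identifiers of the count table, each matching 1 identifier of GENCODE M21. All 9 were present in the table and all 9 passed the filter on low counts in the joint test of the populations. In the separate test of the P15 populations of the 2 mouse lines, 5 of the 9 passed it.

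ErbB receptors are kinases of the cell surface that act in pairs. EGFR and ERBB4 bind ligands and signal, ERBB2 binds no known ligand and serves as a partner, and ERBB3 binds neuregulins but has little kinase activity of its own. Amphiregulin (Areg), HB-EGF (Hbegf) and TGF-alpha (Tgfa) are made as membrane precursors, shed by proteases and bind EGFR, HB-EGF also binding ERBB4, whereas neuregulin 1 (Nrg1) binds ERBB3 and ERBB4. MET is the receptor of hepatocyte growth factor (HGF), and in mammary epithelium these receptors are known for their part in ductal growth, branching and tumour growth. In the MMTV-PyMT mouse, polyoma middle T antigen is expressed from a promoter active mainly in mammary epithelium and gives rise to multifocal mammary tumours.

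All animals were MMTV-PyMT tumour mice that also carried MMTV-Flpo, a Flp recombinase, and the RC::FrePe reporter, with a tamoxifen-inducible Cre recombinase at Cdh2 (Cdh2-CreERT2, 5 animals, here the Cdh2 line) or at Tnc (Tnc-CreERT2, 5 animals, here the Tnc line). Cells that had expressed Flpo were mCherry-positive, and those in which Cre was also active under tamoxifen switched irreversibly to GFP. Cdh2 encodes N-cadherin, a mark of full epithelial-mesenchymal transition (EMT), and Tnc encodes tenascin C, used by the study to mark partial EMT. Tamoxifen dosing, with 2 doses of 2 mg each week, began in all animals at an age of 9 weeks, the source of the control population included, and lasted until they were killed at roughly 13 to 14 weeks. Pools of 5 cells were sorted directly from tumours and sequenced over whole transcripts without molecular identifiers. In the Cdh2 line, the groups with their passing libraries and animals were P15 (GFP-positive, EpCAM negative, 16 libraries of 3 animals), P05 (mCherry-positive, EpCAM negative, 10 of 1) and, as the starting population, P18 (mCherry high, EpCAM high, 50 of 5). Those of the Tnc line were P22 (mCherry and GFP double-positive, EpCAM high, 50 libraries of 5 animals), P09 (GFP high, EpCAM medium, 48 of 5), P16 (GFP-positive, EpCAM medium, 26 of 4), P10 (GFP-positive, EpCAM low, 25 of 4), P15 (12 of 3), P05 (32 of 5), P17 (mCherry-positive, EpCAM high, 11 of 3) and P18 (55 of 5).

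Levels are given in CPM, the reads of a gene per 1000000 reads, over the summed libraries of an animal and population, scaled by TMM factors, as mean ± SD over animals. Values of single libraries, count ratios and bounds carry no such factor. The total counts of the 335 libraries used ran between 313655 and 27849014. The summed CPM of 8 epithelial markers was 40.5 to 193 in Cdh2 P15, against 1761 to 22777 in Cdh2 P18. It was 30.0 to 231 in Tnc P15, with Krt7, Cdh1, Cldn4 and Cldn7 at 0, and 51.3 to 1425 in Tnc P05, against 9070 to 21147 in Tnc P18. The summed CPM of 8 leukocyte markers was 6.26 to 22.5 in Cdh2 P15, with Ptprc, Laptm5, Tyrobp and Mrc1 at 0, against 3033 to 8105 in Tnc P15, 32.6 to 9594 in Tnc P05 and 6.54 to 39.1 in Tnc P18. All 12 Tnc P15 libraries held Ptprc, the pan-leukocyte phosphatase CD45, at 10 CPM or more, so leukocyte transcripts were present throughout a population gated as recombined tumour cells, and their part in the results below was not tested. In Tnc P05, 8 fibroblast markers summed to 11.2 to 15930 CPM, against 0.847 to 611 in Tnc P15 and 0.206 to 7.64 in Tnc P18. They summed to 50.3 to 135 CPM in Cdh2 P15, against 0.0581 to 13.5 in Cdh2 P18. The Cdh2 P15 sums held basal or smooth muscle markers at 573 to 761 CPM, nearly all from Acta2, smooth muscle actin, at 638 ± 81.7 CPM (n = 3), with Krt14 at 0. The Cdh2 P18 sum of Cdh1624, made of 2 libraries with 320085 and 559174 counts, stood apart, with no read of 8 of the 9 members. In Tnc P15, the sum of TENA2524 was 1 library of 508631 counts, against totals of 28603612 in TENA2483 and 16070545 in TENA2517. A 0 in that shallow sum carries little weight for genes of a few CPM. In pools, fewer cells of a type and less RNA per cell cannot be told apart.

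The comparisons ask whether cells that had switched on Tnc or Cdh2, or had lost EpCAM, differ in receptor and ligand transcripts from P18 cells. In edgeR's quasi-likelihood test on sums per animal, adjusted by Benjamini-Hochberg over all genes tested (33768 in the joint fit), 0 members passed an adjusted p of 0.05 in each of the 11 comparisons, of 9 tested in 10 of them and 5 in the other one. The share of all genes called was 0.0% in Tnc P22 against P18, 0.0% in P09, 0.00296% in P16, 0.00296% in P10, 0.729% in P15, 0.545% in P05 and 0.0% in P17. It was 0.136% in Tnc P15 against Tnc P05, 0.0% in Cdh2 P15 against Cdh2 P18, and 0.0% between the lines in both P18 and P15. At an unadjusted p under 0.05, the count of members was 1 in P22, 0 in P09, 1 in P16, 1 in P10, 3 in P15, 4 in P05 and 0 in P17, all with lower values than P18. It was 1 in Tnc P15 against P05, 3 in Cdh2 P15 against P18 and 0 between the lines. The share of all genes with such a p was 2.12% in P22, 2.52% in P09, 6.11% in P16, 8.23% in P10, 15.2% in P15, 13.3% in P05, 5.02% in P17, 10.3% in Tnc P15 against P05, 3.6% in Cdh2 P15, 2.41% between the lines in P18 and 10.6% in P15. DESeq2 on the same sums called 3 members in Tnc P15 (14.0% of all genes), 5 in Tnc P05 (13.4%), 2 in Tnc P15 against P05 (10.6%), 3 in Cdh2 P15 (4.9%) and 0 elsewhere, where it called 0.0174% to 9.62% of all genes. Limma on the mean log values of libraries called 3 in P10 (7.54% of all genes), 5 in Tnc P15 (13.9%), 7 in Tnc P05 (18.2%), 3 in Cdh2 P15 (4.2%) and 0 elsewhere, where it called 0.0% to 2.13% of all genes. Which members were called thus depended on the tool, and the calls of each are named below. The populations of a line are all set against the same P18 sums, so their fold changes are not independent of each other.

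Erbb2 (ENSMUSG00000062312; GRCm38 chromosome 11, 98412470 to 98437716, plus strand) encodes the ligandless partner receptor HER2. Its transcripts were at 0 counts in every sum of both GFP-positive EpCAM-negative populations. In the Cdh2 line, Erbb2 was at 0, 0 and 0 CPM in the P15 sums of Cdh1624, Cdh1654 and Cdh1739, against 9.00, 44.4, 16.9, 15.1 and 0.247 CPM in the 5 P18 sums. The groups did not overlap, although the P18 sum of Cdh1803 lay close to 0. With 0 counts in P15 against 7522 in P18, a floor of 3 counts over the group puts the log2 ratio at -9.59 or lower (fitted p = 0.000101, edgeR adjusted p = 0.243, lower in 3 of 3 animals).

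Erbb2 was likewise at 0 CPM in all 3 P15 sums of the Tnc line, against 10.9, 12.7, 19.7, 14.3 and 12.1 CPM in the P18 sums. The P15 sum of TENA2524 was the single shallow library described above. The groups were apart, and the log2 ratio was -7.64 or lower on 0 against 4725 counts (edgeR adjusted p = 0.0613, lower in 3 of 3 animals). Without the replicate block, the edgeR test called Erbb2 in both lines, with adjusted p = 0.0451 in the Cdh2 line and 0.0252 in the Tnc line. DESeq2 and limma also called it lower in P15 of both lines. The mCherry-positive EpCAM-negative population P05 of the Tnc line held 11.3, 4.54, 0.284, 10.1 and 0 CPM, overlapping P18 (log2 fold change -1.72 ± 1.35, SE, edgeR adjusted p = 0.606), and limma called it lower there. Against P05, Erbb2 in Tnc P15 had a log2 ratio of -5.75 or lower on 0 against 430 counts (edgeR adjusted p = 0.193), a difference that DESeq2 called.

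Mean Erbb2 levels of the GFP-positive populations that kept EpCAM were above that of P18, with no difference called by edgeR, DESeq2 or limma. Erbb2 averaged 20.9 ± 9.07 CPM in P22 (n = 5), 20.6 ± 8.65 in P09 (n = 5), 32.9 ± 20.2 in P16 (n = 4) and 35.8 ± 34.7 in P10 (n = 4), against 13.9 ± 3.46 in Tnc P18 (n = 5). In P10 the 4 sums were 57.9, 72.4, 0 and 13.1 CPM, so the EpCAM-low sums ranged on both sides of P18. On the means of log values over libraries, limma gave -1.35 for P10 and -0.10 for P16, and Erbb2 reached 10 CPM in 8 of 26 P16 and 9 of 25 P10 libraries, against 32 of 55 Tnc P18 libraries. In P09 the value was higher in 5 of 5 animals (log2 fold change 0.51 ± 1.24, SE, adjusted p = 1 in edgeR), a difference smaller than its error. The mCherry-positive, EpCAM-high P17 averaged 4.30 ± 4.52 CPM (n = 3), with every sum below every Tnc P18 sum. There the log2 fold change was -1.36 ± 1.60 (SE, lower in 3 of 3 animals), not called by edgeR, DESeq2 or limma.

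The gene Mien1 lies opposite Erbb2 and overlaps it, and the library kit does not mark strand, so reads of the overlap cannot be told apart. Mien1 was counted at 43.1 ± 12.3 CPM in Cdh2 P15 and at 240 ± 181 CPM in Cdh2 P18 (n = 3 and 5). It was counted at 14.9 ± 14.3 CPM in Tnc P15 and at 272 ± 95.4 CPM in Tnc P18 (n = 3 and 5). Reads were counted to Mien1 in both P15 populations, at lower means than in P18, while none was counted to Erbb2. How reads of the overlap were assigned is not known, and a part of this in the Erbb2 values was not tested. Grb7, a neighbour of Erbb2 and an adaptor that binds activated receptors, was at 0 in Tnc P15 and at 21.6 ± 5.70 CPM in Tnc P18.

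Promoter sequences from RefSeq (GRCm38.p6) were matched for Egfr, Erbb2, Erbb4, Met, Areg and Tgfa. Windows of 250 bases before the start site were taken, cut where they reached the GENCODE gene span, which left 236 bases for Erbb2 and 93 for Met. They were searched on both strands for the E-box CAGGTG bound by EMT repressors of the SNAI and ZEB families, the AP-1 motif TGANTCA and the cAMP response element TGACGTCA. Of 32851 promoters of the table, 17.22% held the E-box, 6.749% the AP-1 motif and 1.546% the cAMP response element. These shares are for 250 bases, so the lack of a match in the shorter window of Met cannot be set against them. Areg held 1 E-box and 1 cAMP response element and Tgfa held 1 E-box, while none of these letters was found in the windows of the other 4. Shown are Erbb2 (chr11:98412234-98412469, plus strand), at 0 counts in both P15 populations as was Erbb4, and Areg (chr5:91139349-91139598, plus strand) and Tgfa (chr6:86194972-86195221, plus strand), the members with a match, which is in capitals.

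Erbb2: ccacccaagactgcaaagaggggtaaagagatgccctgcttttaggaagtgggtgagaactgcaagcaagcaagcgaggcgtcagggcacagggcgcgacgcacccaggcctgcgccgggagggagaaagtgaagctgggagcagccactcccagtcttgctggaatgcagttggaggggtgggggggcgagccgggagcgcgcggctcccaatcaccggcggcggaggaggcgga

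Areg: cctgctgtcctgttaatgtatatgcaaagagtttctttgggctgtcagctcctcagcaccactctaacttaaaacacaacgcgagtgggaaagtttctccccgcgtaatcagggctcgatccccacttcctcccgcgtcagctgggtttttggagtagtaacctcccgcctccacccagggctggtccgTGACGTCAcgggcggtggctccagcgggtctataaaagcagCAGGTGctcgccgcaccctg

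Tgfa: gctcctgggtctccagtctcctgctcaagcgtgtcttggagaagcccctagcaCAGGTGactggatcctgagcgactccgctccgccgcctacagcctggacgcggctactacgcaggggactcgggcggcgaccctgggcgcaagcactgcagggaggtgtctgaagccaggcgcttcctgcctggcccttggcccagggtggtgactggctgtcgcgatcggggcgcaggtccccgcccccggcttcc

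Erbb3 (ENSMUSG00000018166; chromosome 10, 128567523 to 128589652, minus strand), the neuregulin receptor, had nearly no reads in either P15 population. In the Cdh2 line it was at 0, 0.221 and 0 CPM in the P15 sums, against 0, 33.7, 21.7, 21.0 and 22.7 CPM in the P18 sums. Leaving aside the 0 of Cdh1624 in P18, the groups were far apart. The 2 reads in P15 against 10063 in P18 give a log2 ratio of -10.60 with a 95% counting interval of -13.64 to -8.75 (edgeR adjusted p = 0.810), a difference that DESeq2 and limma called.

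In the Tnc line, Erbb3 was at 0, 0.130 and 0 CPM in the P15 sums of TENA2483, TENA2517 and TENA2524, and at 0.588, 0, 0.568, 6.10 and 2.75 CPM in the P05 sums, against 17.9, 13.8, 20.0, 18.3 and 19.8 CPM in the P18 sums. Both EpCAM-negative groups lay below every P18 sum. The P15 log2 ratio was -8.64, with a counting interval of -11.68 to -6.78 on 2 against 6299 counts (edgeR adjusted p = 0.104). The P05 log2 fold change was -3.72 ± 1.45 (SE, edgeR adjusted p = 0.244, lower in 5 of 5 animals). DESeq2 and limma called Erbb3 lower in both.

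In populations that kept EpCAM, Erbb3 averaged 19.8 ± 3.89 CPM in P22 and 16.8 ± 3.76 CPM in P09, against 18.0 ± 2.51 CPM in Tnc P18 (n = 5 each), differences within the spread between animals. In P16 the sums were 22.0, 0.135, 14.8 and 16.9 CPM, the low value being a sum of 1 library, and in P10 they were 37.8, 0, 0 and 6.35 CPM. The EpCAM-low sums thus ran between no reads and above P18 (log2 fold change -1.72 ± 1.61, SE, edgeR adjusted p = 0.825, called lower by limma).

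Erbb4 (ENSMUSG00000062209; chromosome 1, 68032186 to 69108059, minus strand), a neuregulin and HB-EGF receptor, was the least abundant member per kilobase in P18. It was at 0 CPM in all 3 Cdh2 P15 sums, against 0, 4.72, 1.62, 4.63 and 1.48 CPM in Cdh2 P18, and at 0 CPM in all 3 Tnc P15 sums, against 0.354, 2.96, 0.586, 2.43 and 1.44 CPM in Tnc P18. The groups touched only through the P18 sum of Cdh1624. The log2 ratio was -7.05 or lower in the Cdh2 line on 0 against 1287 counts and -4.48 or lower in the Tnc line on 0 against 530 counts (edgeR adjusted p = 0.892 and 0.147). DESeq2 and limma called Erbb4 lower in Cdh2 P15.

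Erbb4 also had low values in Tnc populations that kept EpCAM. P22 held 0, 0.206, 0, 2.92 and 0 CPM, with a log2 fold change of -4.42 ± 1.71 (SE, lower in 4 of 5 animals, edgeR adjusted p = 1). P16 held 0.0538, 0, 0 and 2.10 CPM (log2 fold change -3.98 ± 1.83, SE, edgeR adjusted p = 0.800). P10 held 0, 0, 0 and 0.208 CPM, below every P18 sum (log2 fold change -7.29 ± 2.36, SE, edgeR adjusted p = 0.489). TENA2524 gave the highest sum in each of these 3 populations. Erbb4 was the member with an unadjusted p under 0.05 in P22, P16 and P10, and none of these differences was called by edgeR, DESeq2 or limma. P05 held 0, 0.0769, 0, 0.0649 and 0.0332 CPM, also below every P18 sum (log2 fold change -6.54 ± 1.98, SE, edgeR adjusted p = 0.123), a difference that DESeq2 called.

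Egfr (ENSMUSG00000020122; chromosome 11, 16752203 to 16918158, plus strand), the receptor of amphiregulin, HB-EGF and TGF-alpha, was the most abundant ErbB receptor per kilobase of exon in Cdh2 P15 and Tnc P05. It was at 0.440 CPM per kb in Cdh2 P15, where Erbb3 was at 0.0122, and at 2.17 in Tnc P05, where Erbb2 was at 1.01. In Cdh2 P05, from 1 animal, it was at 0.225 CPM per kb, below Erbb3 at 0.411. In the Cdh2 line it was at 7.32, 4.64 and 3.01 CPM in P15, against 0, 23.1, 26.9, 33.3 and 33.0 CPM in P18. The P15 sums lay below 4 of the 5 P18 sums and above that of Cdh1624. The log2 fold change was -1.31 ± 2.82 (SE, edgeR adjusted p = 1) and was -2.89 without Cdh1624 and 1.16 without Cdh1739.

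In Tnc P15, Egfr was at 7.90, 0 and 0 CPM, against 21.4, 16.7, 19.1, 15.4 and 26.0 CPM in Tnc P18. The groups did not overlap (log2 fold change -2.42 ± 2.04, SE, edgeR adjusted p = 0.652), limma called it lower, and all Egfr reads of P15 came from a single library of TENA2483 at 31.3 CPM. Without that animal the fitted value was -12.13, a fit against no reads. In Tnc P05, Egfr was at 29.3, 4.50, 0, 66.4 and 22.5 CPM, on both sides of the P18 sums (log2 fold change -0.11 ± 1.57, SE, edgeR adjusted p = 1). The 66.4 CPM are those of TENA2524, where 1 library at 210 CPM held 39.5% of the P05 Egfr reads. That library also had the highest Krt14 of P05, at 534 CPM. Limma called Egfr lower in P05, whereas the sign of the edgeR value turned when TENA2483, TENA2517 or Cdh1725 was left out, at 0.29, 0.41 and 0.01. The other receptors had lower means in P05 than in P18.

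Egfr averaged 26.0 ± 11.1 CPM in P22, 16.0 ± 5.93 in P09, 13.8 ± 12.1 in P16, 14.5 ± 11.4 in P10 and 8.69 ± 14.3 in P17, against 19.7 ± 4.19 CPM in Tnc P18. None of these log2 fold changes was larger than its error except that of P17, at -2.45 ± 2.20 (SE, edgeR adjusted p = 1, n = 3).

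Met (ENSMUSG00000009376; chromosome 6, 17463800 to 17573980, plus strand), the HGF receptor, was at 0.704, 0 and 19.8 CPM in Cdh2 P15, against 0, 20.0, 18.7, 8.01 and 1.90 CPM in Cdh2 P18. The groups overlapped (log2 fold change 0.05 ± 2.59, SE, edgeR adjusted p = 1, and -3.34 without Cdh1624), and 95.9% of the P15 reads came from 1 library of Cdh1739 at 173 CPM. In Tnc P15, Met was at 1.52, 0 and 0 CPM and in Tnc P05 at 18.3, 0.115, 0, 1.56 and 0.0332 CPM, against 18.3, 10.4, 7.97, 10.5 and 18.6 CPM in Tnc P18. Met thus had few reads in both EpCAM-negative populations apart from P05 of TENA2462, where 1 library held 85.6% of the P05 reads. The log2 fold change was -3.40 ± 2.11 in P15 and -4.02 ± 1.86 in P05 (SE, edgeR adjusted p = 0.470 and 0.340, lower in 3 of 3 and 5 of 5 animals). Limma called Met lower in both populations and in P10, and DESeq2 in P05. In P22 at 17.7 ± 13.8, P09 at 18.4 ± 10.3 and P16 at 17.0 ± 16.8 CPM, Met did not differ from P18 at 13.2 ± 4.94 CPM by more than its error.

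**Figure D1:**
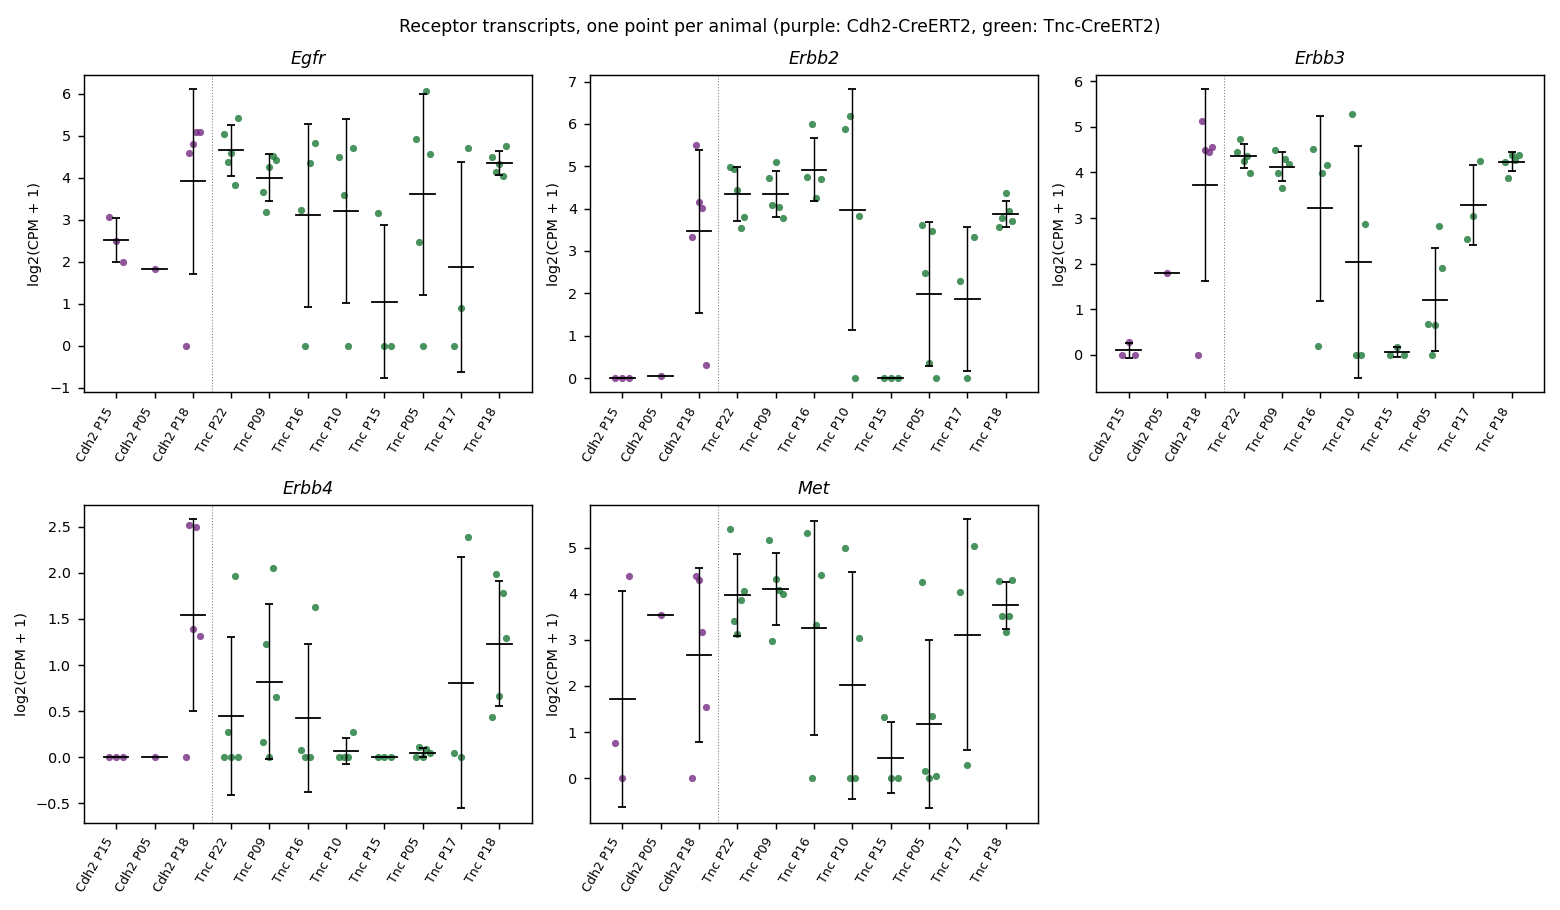
Levels of the 5 receptors in each population, as log2(CPM + 1) with 1 point per animal and a bar for the mean ± SD of the log values (Cdh2 line in purple, Tnc line in green). Erbb2, Erbb3 and Erbb4 lie at or near 0 in P15 of both lines, whereas Egfr in P05 of the Tnc line runs from 0 to 66.4 CPM.

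Of the ligands, Hbegf (ENSMUSG00000024486; chromosome 18, 36504927 to 36515805, minus strand) was by far the most abundant. Per kilobase of exon in Tnc P18 it reached 112 CPM per kb, against 24.5 for Areg, 1.16 for Tgfa and 0.531 for Nrg1. The receptors on the same scale were at 2.99 for Erbb3, 2.67 for Erbb2, 1.74 for Egfr, 1.71 for Met and 0.126 for Erbb4. Hbegf averaged 540 ± 263 CPM in Tnc P18 (n = 5), and 55 of 55 P18 libraries held it at 10 CPM or more.

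In the Cdh2 line Hbegf was at 0.621, 14.9 and 426 CPM in P15, against 0, 195, 665, 459 and 193 CPM in P18. The P15 sums overlapped those of P18, of which the highest 2 lay above all of them (log2 fold change -0.76 ± 2.34, SE, edgeR adjusted p = 1, and -1.90 without Cdh1624), and 1 library of Cdh1739 at 1858 CPM held 49.2% of the P15 reads. Tnc animals had Hbegf at 164, 0.195 and 0 CPM in P15, at 293, 8.65, 0, 25.8 and 69.2 CPM in P05 and at 885, 435, 651, 175 and 554 CPM in P18. The P15 sums lay below every P18 sum, with 99.9% of their reads in 1 library of TENA2483, the library that also held the Egfr reads. That library held all Met reads of Tnc P15 too. It was the only 1 of the 12 Tnc P15 libraries with Col1a1, a fibroblast collagen, at 10 CPM or more, at 483 CPM. The part of fibroblast RNA in these reads was not tested. P05 overlapped P18 in range through TENA2462 and was lower in 5 of 5 animals. The log2 fold change was -3.15 ± 1.99 in P15 and -3.69 ± 1.58 in P05 (SE, edgeR adjusted p = 0.482 and 0.295). Limma called both and P10, and DESeq2 called P05.

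The double-positive and GFP-high populations kept Hbegf: it averaged 636 ± 321 CPM in P22 and 395 ± 203 CPM in P09 (n = 5 each). It was at 842, 65.7, 110 and 29.1 CPM in P16 and at 1301, 58.4, 0 and 32.1 CPM in P10. In both populations TENA2462 stood far above the other 3 animals, which all lay below every P18 sum. P16 was lower than P18 in 4 of 4 animals (log2 fold change -2.08 ± 1.59, SE, edgeR adjusted p = 0.881). The animals differed in Hbegf: TENA2462 had the highest Tnc sum in 6 of the 6 populations it gave, and also the highest Met in 5 and Tgfa in 5, a tally made after the values were seen.

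Areg (ENSMUSG00000029378; chromosome 5, 91139599 to 91148432, plus strand), a ligand known for its part in mammary duct growth, was in the Cdh2 line at 0, 0 and 10.9 CPM in P15, against 0, 0, 18.7, 3.97 and 0.0581 CPM in P18. Tnc animals had Areg at 0, 54.1 and 24.1 CPM in P15, at 0, 0, 0, 0 and 19.3 CPM in P05 and at 33.7, 4.00, 82.5, 15.0 and 13.4 CPM in P18. The 24.1 CPM in P15 rest on the single shallow library of TENA2524. P15 and P18 overlapped in both lines, and in P05 all reads came from 1 library of TENA2560 at 123 CPM. The P05 log2 fold change against P18 was -5.30 ± 2.99 (SE, edgeR adjusted p = 0.452) and that of P15 was -0.12 ± 2.13 (SE, edgeR adjusted p = 1). All 3 Tnc P15 libraries with Areg at 10 CPM or more held Ptprc, as did every Tnc P15 library. DESeq2 and limma called Areg lower in P05 than in P18, DESeq2 called it higher in P15 than in P05, and edgeR gave 5.18 ± 3.30 for P15 against P05 (SE, adjusted p = 0.633). In P18 itself, 1 library of TENA2517 at 808 CPM held 44.9% of the Areg reads.

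Tgfa (ENSMUSG00000029999; chromosome 6, 86195223 to 86275719, plus strand), encoding TGF-alpha, was at 6.70, 0 and 39.3 CPM in Cdh2 P15, against 0, 7.07, 11.2, 10.2 and 0 CPM in Cdh2 P18. The groups overlapped (log2 fold change 1.49 ± 3.80, SE, edgeR adjusted p = 1), and the value was -2.43 without Cdh1624. In Tnc P15 it was at 0, 0.195 and 0 CPM and in Tnc P05 at 0.220, 8.81, 0, 0 and 0 CPM, against 14.6, 6.71, 8.68, 1.42 and 6.19 CPM in Tnc P18. The P15 sums lay below all P18 sums, with a log2 ratio of -6.70 and a counting interval of -8.98 to -5.16 on 3 against 2473 counts (edgeR adjusted p = 0.355, called by DESeq2). P05 overlapped P18 through TENA2483 (log2 fold change -1.82 ± 2.31, SE, not called by edgeR, called lower by limma).

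Nrg1 (ENSMUSG00000062991; chromosome 8, 31814551 to 32884029, minus strand), the neuregulin gene, had its highest mean in Cdh2 P15. Its sums were 35.0, 11.0 and 59.2 CPM in Cdh2 P15, against 0, 8.96, 5.11, 2.21 and 14.0 CPM in Cdh2 P18. Each P15 animal was above its own P18 sum, though the 11.0 CPM of Cdh1654 was below the P18 sum of Cdh1803. The log2 fold change was 4.40 ± 3.18 (SE, edgeR adjusted p = 1, higher in 3 of 3 animals), and it was 2.52 without Cdh1624, 6.30 without Cdh1654 and 3.78 without Cdh1739.

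At the level of libraries, 8 of 16 Cdh2 P15 libraries held Nrg1 at 10 CPM or more, against 7 of 50 Cdh2 P18 libraries. They came from all 3 animals: 137, 55.5 and 21.9 CPM in Cdh1624, 56.3 CPM in Cdh1654, and 71.9, 83.3, 171 and 72.8 CPM in Cdh1739. All 8 held Acta2 at 10 CPM or more, as did 13 of the 16 libraries, and none held Krt8, Col1a1 or Ptprc at that level. Of all 16 libraries, 12 held none of these 3 markers, with Krt8 in 4, Col1a1 in 1 and Ptprc in 0. Col1a1 is only 1 of the 8 fibroblast markers, all of which had reads in Cdh2 P15. These 8 summed to 50.3 to 135 CPM there, against 0.0581 to 13.5 in Cdh2 P18, and their part in the Nrg1 level was not tested. In the Tnc line Nrg1 was at 10.2, 0 and 0 CPM in P15, against 1.39, 11.7, 7.42, 4.00 and 2.92 CPM in P18. The P15 reads were almost all, 99.7%, from 1 library of TENA2483 (log2 fold change -1.51 ± 2.30, SE, edgeR adjusted p = 0.912), and the fitted value without that animal was -10.43. In Tnc P05 it was at 9.99, 9.92, 0, 5.52 and 11.3 CPM, overlapping P18 (log2 fold change 0.15 ± 1.78, SE, edgeR adjusted p = 1). That value turned to -0.04 without TENA2462.

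**Figure D2:**
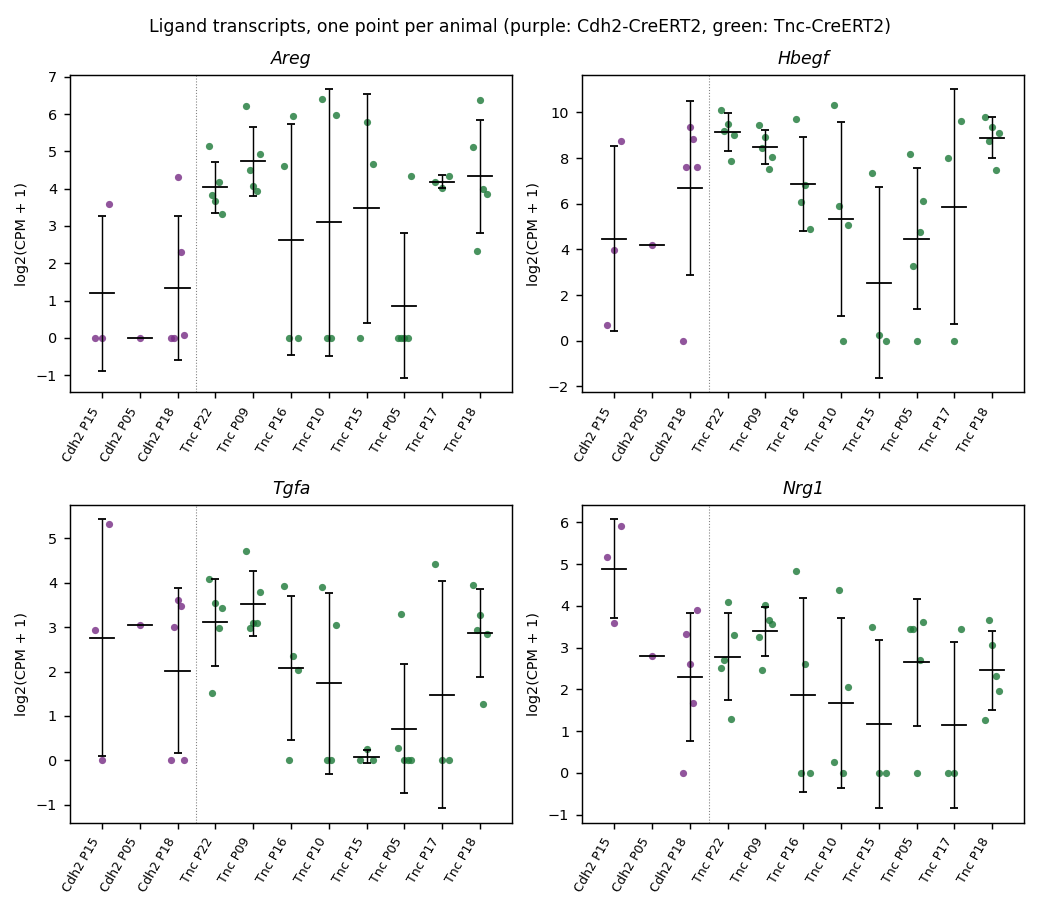
Levels of the 4 ligands in each population, as log2(CPM + 1) with 1 point per animal and a bar for the mean ± SD of the log values (Cdh2 line in purple, Tnc line in green). Hbegf sits above the other ligands in P18 and spreads widely in P10, between 0 and 1301 CPM, and Nrg1 has its highest mean, 35.1 CPM, in Cdh2 P15.

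Across the 11 groups, neighbours in the order of mean levels mostly could not be separated. Of 10 neighbouring gaps per member, none exceeded the larger SD of the pair for Egfr, Erbb4, Met, Hbegf and Tgfa, and 1 did for Erbb2, Erbb3, Areg and Nrg1, leaving aside the Erbb2 step between the single animal of Cdh2 P05 and groups at 0, where no SD is defined above 0. For Erbb2 the order ran from Tnc P10 at 35.8 CPM through P16, P22, P09, Cdh2 P18 and Tnc P18 at 13.9 CPM to Tnc P05 at 5.24 CPM, Tnc P17 at 4.30 CPM, Cdh2 P05 at 0.0371 CPM and 0 in both P15 groups. The gap above the SD lay below Tnc P18. For Erbb3 the gap lay below Tnc P17 at 10.0 ± 6.98 CPM, next to Cdh2 P05 at 2.47 CPM (1 animal). For Nrg1 it lay below Cdh2 P15 at 35.1 ± 24.1 CPM, next to Tnc P09 at 10.1 ± 3.99 CPM, whose ranges overlapped. For Areg it lay below Tnc P22 at 17.1 ± 10.1 CPM, next to Cdh2 P18 at 4.55 ± 8.11 CPM. Cdh2 P05, from Cdh1725 alone, held Egfr at 2.54, Met at 10.7, Hbegf at 17.4, Tgfa at 7.26 and Nrg1 at 5.98 CPM and no Erbb4 or Areg reads, with no replicate check.

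**Figure D3:**
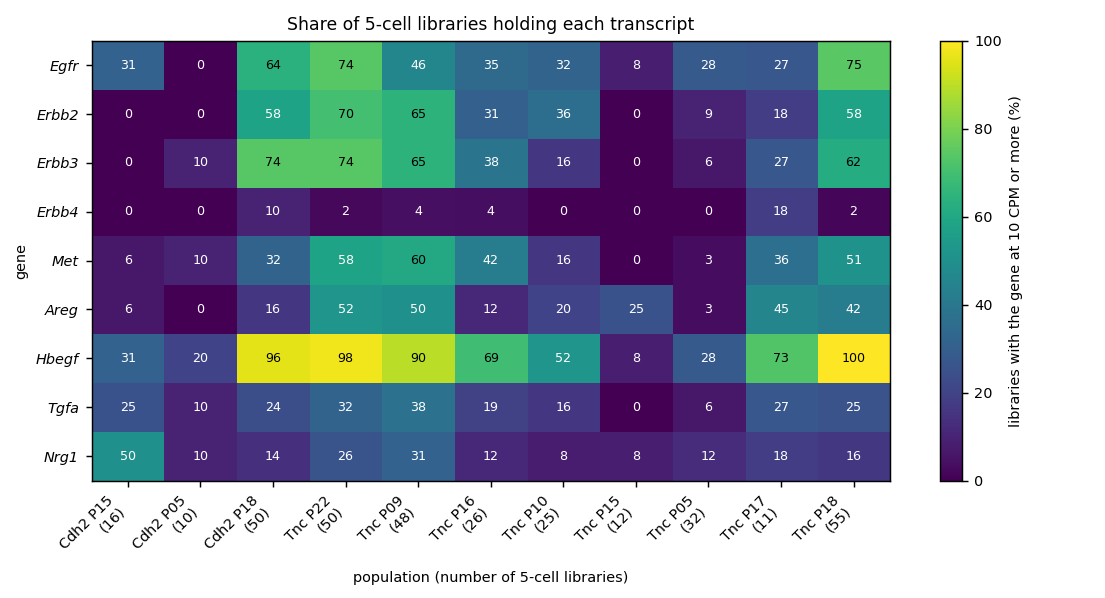
Heat map of the percentage of 5-cell libraries with each member at 10 CPM or more, in each population. Hbegf reaches 100% in Tnc P18 (55 of 55 libraries), and Erbb2, Erbb3 and Erbb4 are at 0 in P15 of both lines.

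Single libraries showed how often the members were found together. In Tnc P22, 0 of 50 libraries lacked all 5 receptors at 10 CPM, against 2 of 55 in Tnc P18. In Cdh2 P15, 10 of 16 libraries lacked all 5, against 4 of 50 in Cdh2 P18. In the other EpCAM-negative groups, 11 of 12 Tnc P15 and 19 of 32 Tnc P05 libraries lacked all 5.

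Receptor pairs were common in P22 and P18 libraries, as were the single receptors. Egfr and Erbb3 were both at 10 CPM or more in 28 of 50 P22 libraries and in 25 of 55 Tnc P18 libraries. Erbb2 and Erbb3, a pair known for strong signalling, were found together in 26 P22 and 20 P18 libraries. Singly, Egfr was found in 37 P22 and 41 P18 libraries, Erbb3 in 37 and 34, and Erbb2 in 35 and 32. Whether the pairs met more often than these single counts would give was not tested. In P17, also gated EpCAM high, the first pair was found in 2 of 11 libraries and the second in 1. There, Egfr was found in 3 libraries, Erbb3 in 3 and Erbb2 in 2. Neither pair was found in any of the 32 Tnc P05 libraries, where Egfr was seen in 9, Erbb3 in 2 and Erbb2 in 3. Of the 9 P05 libraries with Egfr, 7 also held Col1a1, the fibroblast collagen, 2 held Krt8, an epithelial keratin, and 0 held Ptprc. Of the 9 with Hbegf, 6 held Col1a1 and 2 held Krt8. Over all 32 P05 libraries, Col1a1 was found in 16, Krt8 in 10 and Ptprc in 7, and the part of fibroblast RNA in the P05 Egfr level was not tested.

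The share of Nrg1 libraries that also held Erbb3, its receptor, is given beside the share of all libraries with Erbb3. In Cdh2 P15 none of the 16 libraries held Erbb3, so none of the 8 with Nrg1 could, and in Cdh2 P18 Erbb3 was held by 6 of 7 Nrg1 libraries and by 37 of all 50. In the Tnc line it was held by 9 of 13 Nrg1 libraries in P22 (37 of all 50), 11 of 15 in P09 (31 of 48), 1 of 3 in P16 (10 of 26), 0 of 2 in P10 (4 of 25), 1 of 4 in P05 (2 of 32) and 1 of 2 in P17 (3 of 11), against 5 of 9 in P18 (34 of 55). With so few Nrg1 libraries, no tendency of the pair to occur together can be read from these shares. In P10, where 18 of 25 libraries held Krt8, receptor reads went with it: 8 of 8 libraries with Egfr, 9 of 9 with Erbb2, 4 of 4 with Erbb3 and 4 of 4 with Met held Krt8. Of the 13 P10 libraries with Hbegf, 11 held Krt8, and 0 of these member libraries held Ptprc, which was found in 4 P10 libraries.

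**Figure D4:**
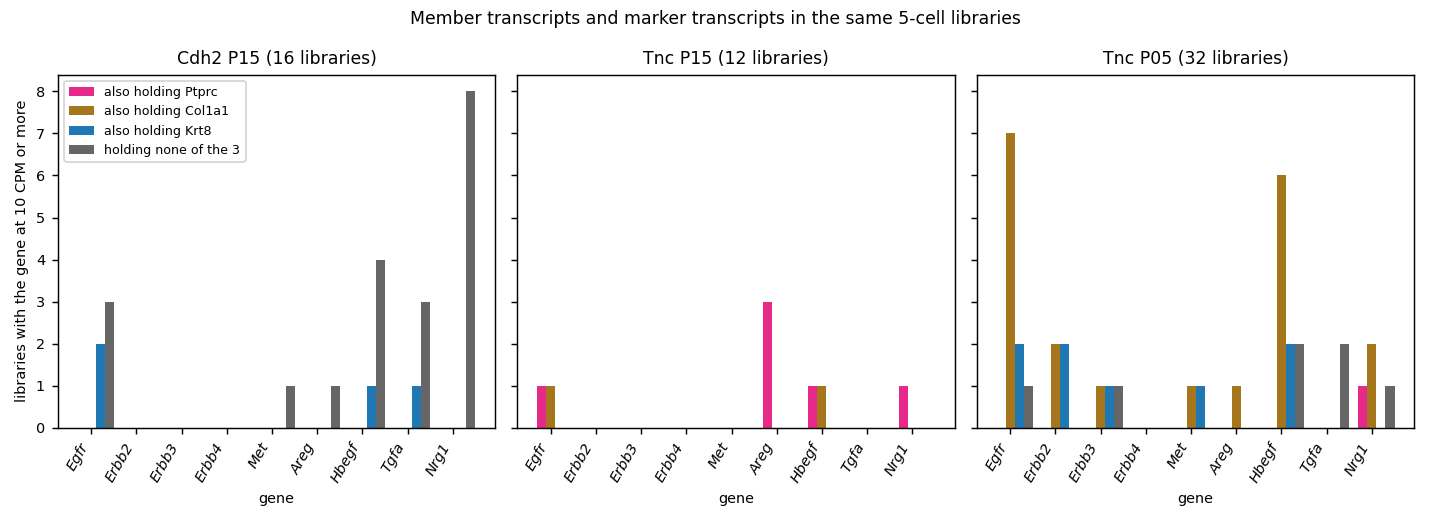
Number of libraries with each member at 10 CPM or more in Cdh2 P15 (16 libraries), Tnc P15 (12) and Tnc P05 (32), split by marker held in the same library (Ptprc, Col1a1, Krt8 or none of the 3; a library with 2 markers is counted under both). In Cdh2 P15 the 8 Nrg1 libraries hold none of the 3 markers, as do 12 of all 16 libraries. In Tnc P05 7 of the 9 Egfr libraries hold Col1a1, as do 16 of all 32.

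The lines were also compared within a population, without a block since the animals differ. In P18, the log2 fold change of the Cdh2 line over the Tnc line was furthest from 0 for Areg, at -2.79 ± 1.55 (SE, edgeR adjusted p = 1), and those of the other 8 members lay between -0.96 and 0.58. No member was called by edgeR, DESeq2 or limma. In P15, Nrg1 was higher in every Cdh2 sum than in every Tnc sum (log2 fold change 3.25 ± 2.13, SE, edgeR adjusted p = 0.800). Tgfa had 3745 counts in Cdh2 P15 against 3 in Tnc P15 (log2 ratio 8.61, counting interval 7.06 to 10.88, not among the genes tested). That interval leaves out the spread between animals. The Tgfa sums ran from 0 to 39.3 CPM in Cdh2 P15 and from 0 to 0.195 CPM in Tnc P15, so the lines overlapped. In Cdh2 P15, 1 library of Cdh1739 held 55.9% of the Tgfa reads.

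The difference of P15 against P18 between the lines was tested as an interaction, an analysis added after the data had been seen. Of the 9 members 0 were called (0.00888% of all genes), and 0 had an unadjusted p under 0.05 (6.94% of all genes). Erbb2 and Erbb4, at 0 counts in P15 of both lines, could not have been called, with SEs of 2776 and 5830. Erbb3 rested on 2 reads in P15 of each line. For Nrg1 the Cdh2 change minus the Tnc change was 5.91 ± 3.93 on the log2 scale (SE, edgeR adjusted p = 0.908), and for Tgfa it was 8.00 ± 5.47 (SE, edgeR adjusted p = 0.916).

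**Figure D5:**
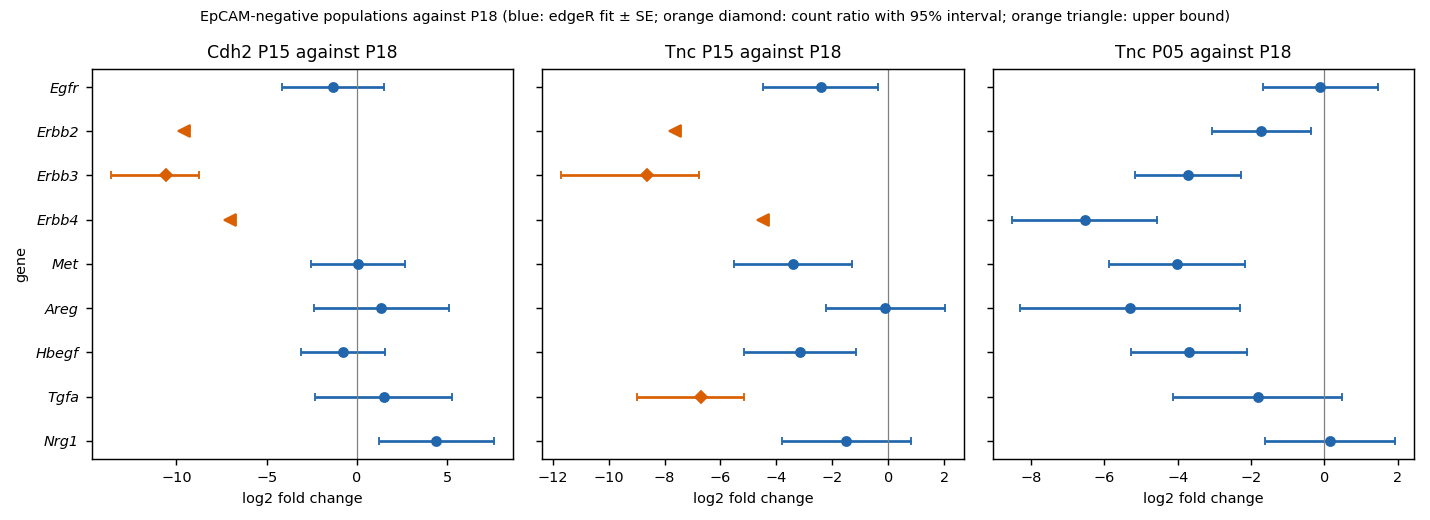
Log2 fold changes of the 9 members in the EpCAM-negative populations against P18 of the same line: blue points are edgeR fits ± SE, orange diamonds are count ratios with 95% counting intervals, and orange triangles are upper bounds where the population had no reads. The Erbb2 bounds are -9.59 in Cdh2 P15 and -7.64 in Tnc P15, while Nrg1 in Cdh2 P15 is at 4.40.

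A list of 44 other genes of these pathways was set beside the members: 8 further ligands, 14 genes of shedding, activation and inhibition, 8 adaptors and 14 genes known as output of ERK signalling. EdgeR called 2 lower and 0 higher in Tnc P15 against P18, 1 lower in Tnc P05 against P18, 1 lower in Tnc P15 against P05 and 0 in the other comparisons. DESeq2 called 14 in Tnc P15 (1 of them higher), 11 in Tnc P05 (2 higher), 9 in Tnc P15 against P05 (1 higher), 10 in Cdh2 P15, 3 in P17 and 1 in P10 (all lower) and 6 between the lines in P15 (5 higher). It called 0 in P22, P09, P16 and between the lines in P18. Limma called 13 in Tnc P15, 20 in Tnc P05, 12 in P10 and 1 in P16 (all lower), 6 in Cdh2 P15 (1 higher) and 5 between the lines in P15 (all higher), and 0 elsewhere. The shares of all genes that each tool called are given above, with 5.2% in P10, 4.18% in P17 and 9.62% in P15 between the lines by DESeq2, and 0.862% in P16 and 2.13% in P15 between the lines by limma. Where edgeR called none, its counts at an unadjusted p under 0.05 were 0 in P22, P09 and P16, 2 in P10, 6 in P17, 6 in Cdh2 P15, 2 between the lines in P18 and 7 in P15.

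The genes that edgeR called were Spint1 and Spint2, whose products are membrane-bound inhibitors of HGF activator and matriptase, proteases that process HGF. Spint2 fell in Tnc P15, with 3.60 ± 5.46 CPM (n = 3) against 806 ± 114 CPM in Tnc P18 (n = 5; log2 fold change -7.70 ± 1.12, SE, edgeR adjusted p = 0.000512), and was called in each of 17 alternatives. It was also lower in Tnc P15 than in Tnc P05, at 131 ± 101 CPM (log2 fold change -5.03 ± 1.01, SE, edgeR adjusted p = 0.0277). That call was lost without TENA2462, TENA2517, TENA2524 or TENA2560, at adjusted p = 0.0698 to 0.324. Spint1 fell in Tnc P15, with 0 counts against 17642 in P18 (log2 ratio -9.54 or lower, edgeR adjusted p = 0.0214), and in Tnc P05, with 0.367 ± 0.741 CPM against 52.7 ± 20.9 CPM in P18 (n = 5 each; log2 fold change -7.95 ± 1.57, SE, edgeR adjusted p = 0.0277). The P15 call was lost without any 1 of the 5 Tnc animals (adjusted p = 0.0570 to 0.130), and the P05 call without TENA2462, TENA2483, TENA2524 or TENA2560 (adjusted p = 0.0650 to 0.151). The epithelial and leukocyte marker sums given above differ between the same groups, and their part in these calls was not tested.

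The medians of the lists ran below those of all genes in the EpCAM-negative populations of the Tnc line. The 9 members had a median log2 fold change of -3.40 in Tnc P15 and -3.69 in Tnc P05, with -0.61 and -0.15 for all genes tested. The genes of the lists were not matched to the others by their level in P18. They were also chosen with earlier results of these data known, so the medians are a description and not a test. In Cdh2 P15 the members' median was -0.76, with 0 for all genes. The 44 other genes had medians of -1.88 in Tnc P15, -0.63 in Tnc P05 and 0.26 in Cdh2 P15. Of the 14 ERK output genes, 14 had negative values in Tnc P15, 8 in Tnc P05 and 5 in Cdh2 P15. With an all-gene median of -0.61, most genes tested also had negative values in Tnc P15. The share of negative values over all genes was not taken, so these counts cannot be set against it. Dusp6, a phosphatase acting on ERK, had a log2 fold change of -3.67 ± 0.94 in Tnc P15 (SE, edgeR adjusted p = 0.0574, called lower by DESeq2 and limma). Errfi1, an intracellular inhibitor of EGFR, averaged 90.5 ± 134 CPM in Tnc P15 and 913 ± 255 CPM in Tnc P18 (log2 fold change -4.06 ± 1.11, SE, edgeR adjusted p = 0.0768, called lower by DESeq2 and limma).

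Among the further ligands, Ereg, encoding epiregulin, averaged 78.3 ± 136 CPM in Cdh2 P15 and 0.045 CPM in Cdh2 P18 (edgeR adjusted p = 1). All of its 4 libraries at 10 CPM or more came from Cdh1739, at 855, 521, 67.4 and 67.2 CPM, and 3 of them also held Nrg1. Egf was at 63.0, 9.15, 10.3, 8.45 and 6.47 CPM in Cdh2 P18, against 1.47, 4.31, 0.728, 9.83 and 7.71 CPM in Tnc P18. The 63.0 CPM are those of Cdh1624, the sum of 2 shallow libraries, and the other 4 sums overlapped Tnc P18 (log2 fold change 2.07 ± 0.94, SE, edgeR adjusted p = 1, and 0.73 without Cdh1624). Egf was at 0 counts in Tnc P05, against 1855 in Tnc P18 (log2 ratio -7.70 or lower). Btc, encoding betacellulin, was at 0 in Tnc P15 and at 3.93 ± 2.95 CPM in Tnc P18. Hgf, the MET ligand, was at 4.89 ± 7.77 CPM in Tnc P05, with 473 counts against 0 in P18 (log2 ratio at least 8.87, edgeR adjusted p = 0.248), and at 0 in P22, P09, P16, P10, P17 and Cdh2 P15. In Tnc P15 it averaged 2.93 ± 5.08 CPM, all in 1 library. Hgf reached 10 CPM only in 2 of 32 Tnc P05 and 1 of 12 Tnc P15 libraries, and Met in 1 and 0 of these groups' libraries. No library held both at that level, but with so few libraries nothing can be read from this.

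Finally, the genes whose levels were most like each member over the 43 sums were taken by Pearson's r of log2(CPM + 1) among 10843 genes with a mean of at least 5 CPM, as a description of sums that share animals and depth. For Erbb3 these were Marveld2 (r = 0.94), Ckmt1 (0.94) and Cldn1 (0.92), the first and last encoding tight junction proteins. For Erbb2 they were Tmc4 (0.89), Gm15929 (0.85) and its neighbour Grb7 (0.85). Among those of Met were Llgl2 (0.85) and Ripk4 (0.84), and for Egfr they were Serpinb5 (0.84), Cryab (0.83) and Ccdc6 (0.83). Hbegf was most like Sgms2 (0.88), Kctd11 (0.88) and Errfi1 (0.85). Nrg1 was most like Fkbp9 (0.78), Mapre3 (0.77) and Smpd1 (0.73), Erbb4 like Enho (0.85), Tgfa like Pigo (0.76) and Areg like Gm12715 (0.70). Among the members themselves, Met and Hbegf had an r of 0.81 and Erbb3 and Met one of 0.75, while Areg and Nrg1 had one of -0.04.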

How the data were processed

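Pools of 5 sorted cells were sequenced after Smart-seq2 cDNA synthesis and Nextera XT tagmentation, per the labels' protocols, and the authors deposited a table of raw read counts per gene for 504 wells. The submitters' processing notes name STAR, SAMtools, featureCounts, Subread and the mm10 build, whose versions and parameters were not given in the sources used here. The counts carry no molecular identifiers, so intervals and floors cover counting error only. Of the wells, 335 libraries passed the authors' quality column and were used, 152 failed it and 17 were empty; no 2 columns were identical. All 55450 identifiers matched GENCODE M21.

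Counts were summed per animal and population into 43 sums (2 of them a single library), the animal being the replicate. The main test was edgeR 4.0.16 (R 4.3.3), quasi-likelihood with TMM factors (0.57 to 2.53), filterByExpr, and the line and population plus the animal as a block, in 1 joint fit, with Benjamini-Hochberg adjustment at 0.05. Populations are paired because they come from the same labelled mouse: the deviations of P22 and P18 sums of an animal correlated at 0.149 to 0.615, and those of Tnc P15 and P18 at -0.0267 to 0.00596. The lines were compared in separate fits without a block (17878 genes in P18, 14028 in P15). The SE is the fold change divided by the square root of F. A group with 0 counts was set to 3 counts over the group, and 1 to 3 counts got an exact 95% binomial interval of the ratio. DESeq2 1.42.0 and limma 3.58.1 (on log2(CPM + 1), pseudocount 1) were alternatives, beside RLE scaling, no filter, sums of at least 3 libraries, leaving out animals or libraries with Ptprc at 10 CPM, no block and fits of 2 populations. Named genes were the 9 members, the called genes of a fixed pathway list (at most 6 per comparison), the further ligands and up to 3 genes most like each member (1 such gene is not reported here); Dusp6 and Errfi1, short of the threshold, were chosen after their values were seen. The members and lists were chosen with earlier results of these data known. Scripts were tested on simulated data. The P17 population of the Cdh2 line was not analysed here.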

Additional observations from a re-analysis of the deposited data

Results flagged for a closer look

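Of 63 groups of 4 or 5 animals checked for a value far from the others, 14 held one, where chance gives about 1 in 20 groups if the values are independent and evenly spread. These groups share animals and hold many zeros, so that rate is not a measure for the 14. TENA2462 was far above the other animals for Hbegf in P05 (293 CPM, next 69.2), P10 (1301 CPM, next 58.4) and P16 (842 CPM, next 110), for Met in P05 (18.3 CPM, next 1.56) and P22 (41.7 CPM, next 15.8), for Erbb3 in P10 (37.8 CPM, next 6.35) and for Areg in P09 (73.3 CPM, next 29.7). TENA2524 was far above the others for Erbb4 in P10 (0.208 CPM), P16 (2.10 CPM) and P22 (2.92 CPM). Areg was high in Cdh2 P18 of Cdh1725 (18.7 CPM, next 3.97) and in Tnc P05 of TENA2560 (19.3 CPM, next 0), Tgfa in P05 of TENA2483 (8.81 CPM, next 0.220) and Nrg1 in P10 of TENA2483 (20.0 CPM, next 3.15).

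Nrg1 values differed in opposite directions in the lines: P15 was above P18 in 3 of 3 Cdh2 animals and below it in 3 of 3 Tnc animals. These tallies include a 0 in the P18 sum of Cdh1624 (2 shallow libraries) and a 0 in the P15 sum of TENA2524 (1 shallow library). In TENA2483, P15 was at 10.2 CPM, nearly all from 1 library, against 11.7 CPM in P18. The test of the difference between the lines gave 5.91 on the log2 scale (edgeR adjusted p = 0.908) and did not pass.

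Member transcripts also appeared in data the comparisons did not use. Of 75 libraries that failed quality control but had a passing depth, Hbegf was at 10 CPM or more in 19, Erbb3 in 16, Erbb2 in 8, Egfr in 6, Met in 6, Tgfa in 4 and Areg in 3. The 17 empty wells held 1 Hbegf read in all and no read of the other members.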

How the results depend on the processing

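The count of members called was 0 in the main edgeR test of each of the 11 comparisons. It was also 0 with RLE scaling, without the filter, with sums of at least 3 libraries, without libraries holding Ptprc and in fits of 2 populations, wherever these gave a value, and it ranged from 0 to 0 over 110 fits that each left out 1 animal. Counts moved with the tool. DESeq2 called 3 in Tnc P15, 5 in Tnc P05, 2 in Tnc P15 against P05 and 3 in Cdh2 P15. Limma called 3 in P10, 5 in Tnc P15, 7 in Tnc P05 and 3 in Cdh2 P15. With no replicate block 1 was called in Tnc P15 and 1 in Cdh2 P15, Erbb2 both times, and dropping the block changed no other count. Of 668 values of 38 member fold changes under alternatives, 604 kept direction and stayed uncalled, 31 became called and 33 turned in sign, none of these called. No call could be lost, since the main test called no member. In Tnc P05, Egfr gave 0.31 with no replicate block, 0.30 without Ptprc libraries, 0.56 with RLE scaling and -1.22 to 0.413 when animals were left out in turn, and Nrg1 gave -0.52 with limma, -0.46 without Ptprc libraries and -0.0359 to 0.797. In Tnc P15, Areg gave 0.0374 with DESeq2, 0.11 with limma, 0.95 with RLE scaling and -0.57 to 0.53 when animals were left out. In Cdh2 P15, Met gave -1.55 with limma, -3.11 with sums of at least 3 libraries, -0.51 with no replicate block, -0.0118 without the filter, -0.0781 without Ptprc libraries, -0.12 with RLE scaling and -3.44 to 2.13 when animals were left out. There, Areg gave -0.29 with limma, -0.33 with no replicate block and 0 to 1.53, Tgfa gave -2.21 with sums of at least 3 libraries and -2.43 to 3.69, Egfr gave -2.89 to 1.16 and Hbegf gave -1.90 to 0.82 when animals were left out. The cause was not tested. At 1 CPM in place of 10 CPM, 32 of 99 detection shares left their binomial interval. The Ptprc alternative could not be run for Tnc P15, where every library held Ptprc. P15 rests on 3 animals per line and P05 of the Cdh2 line on 1, and members of a few CPM were read in few libraries, so differences of low genes may not have been detectable.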
